A study of Mus musculus with 4 samples.

Results

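Complement and coagulation factors are the secreted proteases, cofactors, substrates and inhibitors that form the blood's clotting and pathogen-killing cascades, and the liver makes most of them. The 37 genes described here were listed by name, from contact-pathway zymogens to the pore-forming terminal complement components, and were found on the array by matching each probe's accession to the gene. All 37 were found, of 20886 genes named on the array, through 48 probes. All 37 were well above background on all 4 arrays by the scanner's own flag. Cfd, which encodes adipsin (complement factor D), is kept apart from the other 36 because adipose tissue is its main known source.

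The study crossed catalase genotype with diet in liver of male mice. Catalase splits hydrogen peroxide in peroxisomes. Wild-type and catalase knockout mice ate a normal diet with 18% of calories from fat or a high-fat diet with 60.3%, for 11 weeks, from 29 to 40 weeks of age, and liver RNA of each of the 4 groups was hybridised to 1 single-colour Agilent array. The labels do not give the strain or the design of the knockout allele, nor whether a sample is 1 animal or a pool.

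Clotting runs through 2 entry points. The contact pathway starts on surfaces with factor XII, prekallikrein and high-molecular-weight kininogen, and tissue factor starts the other route through factor VII. Both lead to thrombin, which cuts fibrinogen into fibrin, while antithrombin and other serpins hold the proteases in check and plasmin dissolves the clot. Complement starts from antibody and C1q, from mannose-binding lectins, or from C3 itself, and all routes split C3 and then C5. The released C5b gathers C6, C7, C8 and C9 into the membrane attack complex, the pore that opens target membranes. Hepatocytes secrete most of these proteins, whereas C1q and properdin come mostly from macrophages and other leukocytes. Serum activity of the terminal pathway is known to be higher in male than in female mice, and all 4 samples here were from males.

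Levels are scaled log2 signals, which are log2 of the scanner's processed signal minus the array's 75th percentile, so that 0 is that percentile. Where 4 levels are listed, the wild type comes first and the knockout second, and within each genotype the normal diet precedes the high-fat diet. A difference is a log2 difference between 2 arrays, and the ± is the scanner's error model for that difference, 0.20 for most probes, which covers spot measurement and not the spread between animals. With 1 array per group no difference has a replicate check and no p-value is given. The words rose and fell are used for genes past a size of 1.5-fold or 2-fold, as named. Probes of different genes are not compared for level.

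Cat, the deleted gene, was at 4.89, 4.75, 1.13 and 0.95, so the knockout was 13.5-fold lower with the normal diet and 14.0-fold lower with the high-fat diet. Whether its probes lie in the deleted part is not known from the labels. Between 23757 and 25184 of 39429 probes were well above background on each array, and no spot was saturated. All 8 hepatocyte markers, among them Alb and Ttr, were well above background on all 4 arrays. Their summed linear signal, in units of each array's 75th percentile, was 3123, 2956, 2953 and 2438, lowest on the knockout high-fat array. The sum of the 36 factors other than Cfd was also lowest on that array, with 4313, 3887, 3982 and 3338. In RNA of whole liver, fewer hepatocytes and less RNA of these genes per hepatocyte cannot be told apart. The percentile used as the unit was itself highest on the knockout high-fat array, at a processed signal of 1152. The part of scaling in these sums was not tested.

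The promoters of 6 members are printed first, because the fibrinogen promoters are the textbook example of a liver promoter driven by interleukin-6 and C8b, C6 and Cfd are the members that moved by 2-fold or more. Each line gives the 250 bases upstream of the annotated start, read 5′ to 3′ on the gene's strand, from RefSeq on build GRCm38.p6. Capitals mark matches, on either strand, to the STAT motif TTCNNNGAA, the interleukin-6 response core CTGGGA, the C/EBP-like motif TTGCNNAA and the HNF4-like motif CAAAGTCCA. None of the marked matches overlaps another.
Fga, chr3:83025903-83026152, plus strand: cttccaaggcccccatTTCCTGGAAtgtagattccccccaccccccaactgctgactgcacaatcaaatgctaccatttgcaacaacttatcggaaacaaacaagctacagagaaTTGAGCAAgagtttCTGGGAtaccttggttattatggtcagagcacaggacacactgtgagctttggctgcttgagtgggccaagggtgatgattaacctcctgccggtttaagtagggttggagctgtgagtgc
Fgb, chr3:83049864-83050113, minus strand: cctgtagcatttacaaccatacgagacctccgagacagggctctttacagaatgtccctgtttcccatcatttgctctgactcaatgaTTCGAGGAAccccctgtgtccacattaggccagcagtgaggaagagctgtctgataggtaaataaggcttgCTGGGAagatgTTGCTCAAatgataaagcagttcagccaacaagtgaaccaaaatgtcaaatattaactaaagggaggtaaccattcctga
Fgg, chr3:83007474-83007723, plus strand: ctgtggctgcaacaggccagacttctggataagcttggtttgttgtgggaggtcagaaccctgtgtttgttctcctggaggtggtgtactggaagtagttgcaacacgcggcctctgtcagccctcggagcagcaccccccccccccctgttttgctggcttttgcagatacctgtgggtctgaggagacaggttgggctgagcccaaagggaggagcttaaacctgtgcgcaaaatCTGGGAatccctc
C8b, chr4:104766067-104766316, plus strand: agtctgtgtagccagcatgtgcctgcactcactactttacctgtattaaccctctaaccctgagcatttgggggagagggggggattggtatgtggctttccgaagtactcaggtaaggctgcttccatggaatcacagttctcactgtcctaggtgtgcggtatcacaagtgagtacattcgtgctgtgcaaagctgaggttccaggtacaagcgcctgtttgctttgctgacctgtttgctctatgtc
C6, chr15:4726960-4727209, plus strand: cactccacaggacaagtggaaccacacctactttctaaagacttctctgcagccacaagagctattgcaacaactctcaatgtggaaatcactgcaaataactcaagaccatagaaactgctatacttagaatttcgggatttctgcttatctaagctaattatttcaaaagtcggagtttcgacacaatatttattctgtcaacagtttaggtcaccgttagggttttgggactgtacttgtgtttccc
Cfd, chr10:79890603-79890852, plus strand: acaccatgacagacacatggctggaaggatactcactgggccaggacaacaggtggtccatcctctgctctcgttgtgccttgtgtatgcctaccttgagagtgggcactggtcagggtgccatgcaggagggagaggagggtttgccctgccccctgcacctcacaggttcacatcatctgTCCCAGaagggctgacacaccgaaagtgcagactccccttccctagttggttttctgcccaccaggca

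The Fga and Fgb windows each held 3 matches, to the STAT motif, the interleukin-6 core and the C/EBP-like motif. The Fgg window held 1, the interleukin-6 core, 13 to 8 bases before the start. Cfd held a single interleukin-6 core on the opposite strand, and C8b and C6 held no match to the listed motifs. The HNF1 motif GTTAAT was not among them and was neither counted nor marked. Its letters on the opposite strand, ATTAAC, do occur in the printed C8b, Fga and Fgb windows. The promoter table had a window for 28 of the 37 genes. Among these the interleukin-6 core was in 13 (46.4%), against 27.0% of all 32851 promoter windows of that length. The STAT motif was in 6 (21.4%) against 7.02%, the C/EBP-like motif in 7 (25%) against 9.56%, and the HNF4-like motif in 0 against 0.384%. A match describes letters in the window and is not a bound site.

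Among the 36 factors other than Cfd, the terminal complement genes C8b and C6 spanned the widest range over the 4 arrays. C8b, which encodes the beta chain of C8 that docks the complex onto C5b to C7, was the 1 member past 2-fold in all 4 comparisons. Its level was 5.60, 4.38, 4.56 and 3.23, highest in wild type on normal diet and lowest in the knockout on high-fat diet, with the other arrays between. It fell on high-fat diet in both genotypes, by 1.22 ± 0.20 in wild type and 1.33 ± 0.20 in the knockout, leaving 43.0% and 39.9% of the normal-diet signal. The knockout was 2.05-fold lower than wild type when both ate the normal diet (-1.04 ± 0.20) and 2.21-fold lower when both ate the high-fat diet (-1.15 ± 0.20). The 2 diet comparisons share no array, whereas each genotype comparison shares an array with each diet comparison. From the highest to the lowest array C8b spanned 2.36, or 5.14-fold. On normal diet the difference between genotypes lay near the 2-fold line and was under it when arrays were scaled to their medians (-0.90) or quantile normalised, so that call depends on the scaling. The other 3 differences were past 2-fold under each of the 8 alternative settings.

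C6, which joins C5b at the start of pore assembly, was at 3.71, 2.79, 2.68 and 2.44. The wild-type normal-diet array stood above the other 3. C6 was lower by 1.89-fold on high-fat diet in wild type (-0.92 ± 0.20) and by 2.04-fold in the knockout on normal diet (-1.03 ± 0.20), and the latter was under 2-fold with median scaling or with normexp background correction. In the knockout, diet gave -0.24 ± 0.20, and on high-fat diet the genotypes differed by -0.35 ± 0.20, both short of 1.5-fold. The diet difference in the knockout minus that in wild type was 0.67 ± 0.29.

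C9, the subunit that polymerises into the pore wall, had the same shape at 2.72, 2.07, 2.16 and 2.12, with wild type on normal diet again the highest. It fell on high-fat diet in wild type past 1.5-fold (-0.65 ± 0.20), though not with median scaling (-0.55), and gave -0.04 ± 0.20 in the knockout. Between genotypes it differed by -0.55 ± 0.20 on normal diet, under 1.5-fold, and by 0.05 ± 0.20 on high-fat diet. C8a, the alpha chain of C8 that inserts into the membrane, was at 5.19, 4.73, 4.64 and 4.54 on its brighter probe. That probe gave -0.45 ± 0.20 with diet in wild type and -0.55 ± 0.20 between genotypes on normal diet, short of 1.5-fold. The dimmer C8a probe gave -0.83 and -0.85 in those comparisons, past 1.5-fold, and -0.05 and -0.07 in the remaining pair.

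Hc, the gene of C5, was at 7.13, 6.76, 6.82 and 6.82, again highest in wild type on normal diet, with no difference past 1.5-fold. C8g, the small lipocalin-like gamma chain of C8, departed from the others. It was at 7.57, 7.55, 7.6 and 7.12, so the knockout high-fat array alone was low, with -0.48 ± 0.20 for diet in the knockout and -0.43 ± 0.20 for genotype on high-fat diet, both under 1.5-fold. Of the 6 terminal genes, 5 were highest in wild type on normal diet, as were 29 of the 36 factors and 31.2% of all genes. Among genes with a mean scaled log2 signal of at least 4 the share was 41.8%. C8b and C8a are next to each other on chromosome 4, and C6 and C9 lie on chromosome 15 with 8 protein-coding genes between them. C7, which is not among the 37, was at -4.42, -4.87, -4.64 and -4.68, with no difference past 1.5-fold.

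**Figure D1:**
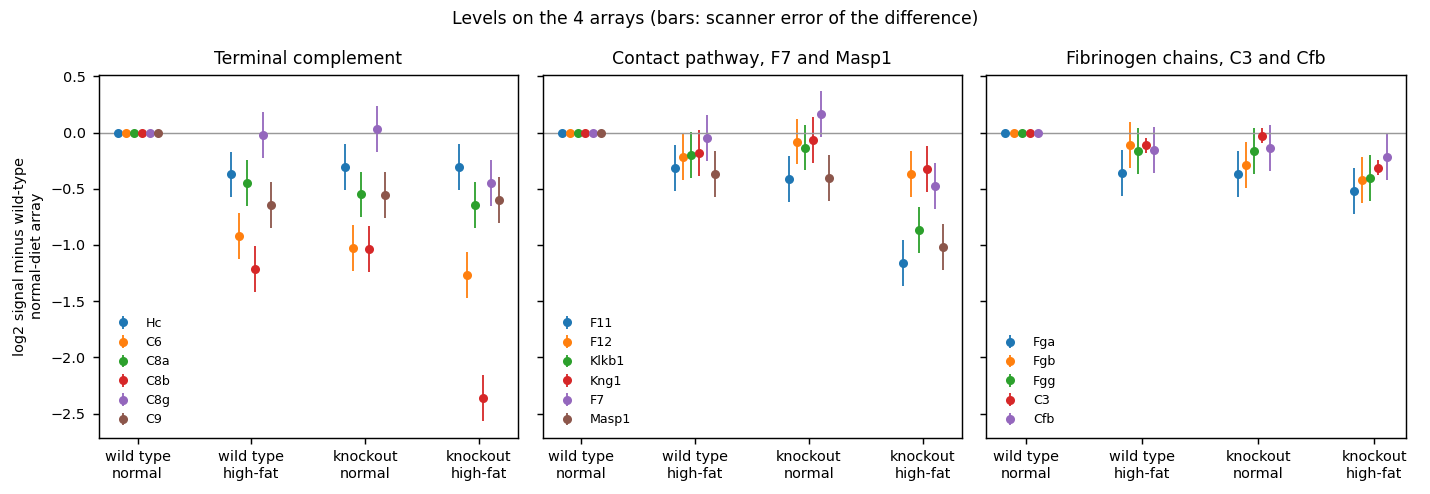
Log2 signal of 17 genes on each array minus the wild-type normal-diet array, in 3 panels, with bars showing the scanner error of the difference (n = 1 array per group). C8b was 2.36 below the reference on the knockout high-fat array, C6 was low on all 3 other arrays, and F11, Klkb1 and Masp1 were lowest on the knockout high-fat array.

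Across all 4 comparisons, 0 of the 36 factors other than Cfd was higher by 1.5-fold or more. For diet in wild type, 4 of 36 (11.1%) were lower by 1.5-fold or more, where the background over all genes measured was 6.51% lower and 4.45% higher. These were C2, C6, C8b and C9, all complement genes, and 1 of 36, C8b, was lower by 2-fold (all genes, 2.31% lower and 1.78% higher). For diet in the knockout, 5 of 36 (13.9%) were lower by 1.5-fold, against 5.68% of all genes lower and 9.52% higher. These were F11, Klkb1, F7, Masp1 and C8b, and C8b again was the single member past 2-fold (all genes, 1.64% lower and 4.22% higher). C8b was the 1 gene in both diet lists.

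Between genotypes on normal diet, C6 and C8b were lower by 1.5-fold, 2 of 36 (5.56%), near the background of 6.65% lower (3.89% higher), and both were also past 2-fold, against 2.50% lower and 1.40% higher. Between genotypes on high-fat diet, 4 of 36 (11.1%) were lower by 1.5-fold, F11, Klkb1, Masp1 and C8b, against 4.36% of all genes lower and 7.34% higher. C8b was the member past 2-fold (all genes, 1.59% lower and 2.51% higher). Diet and genotype comparisons share arrays, so their lists are not independent of each other.

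**Figure D2:**
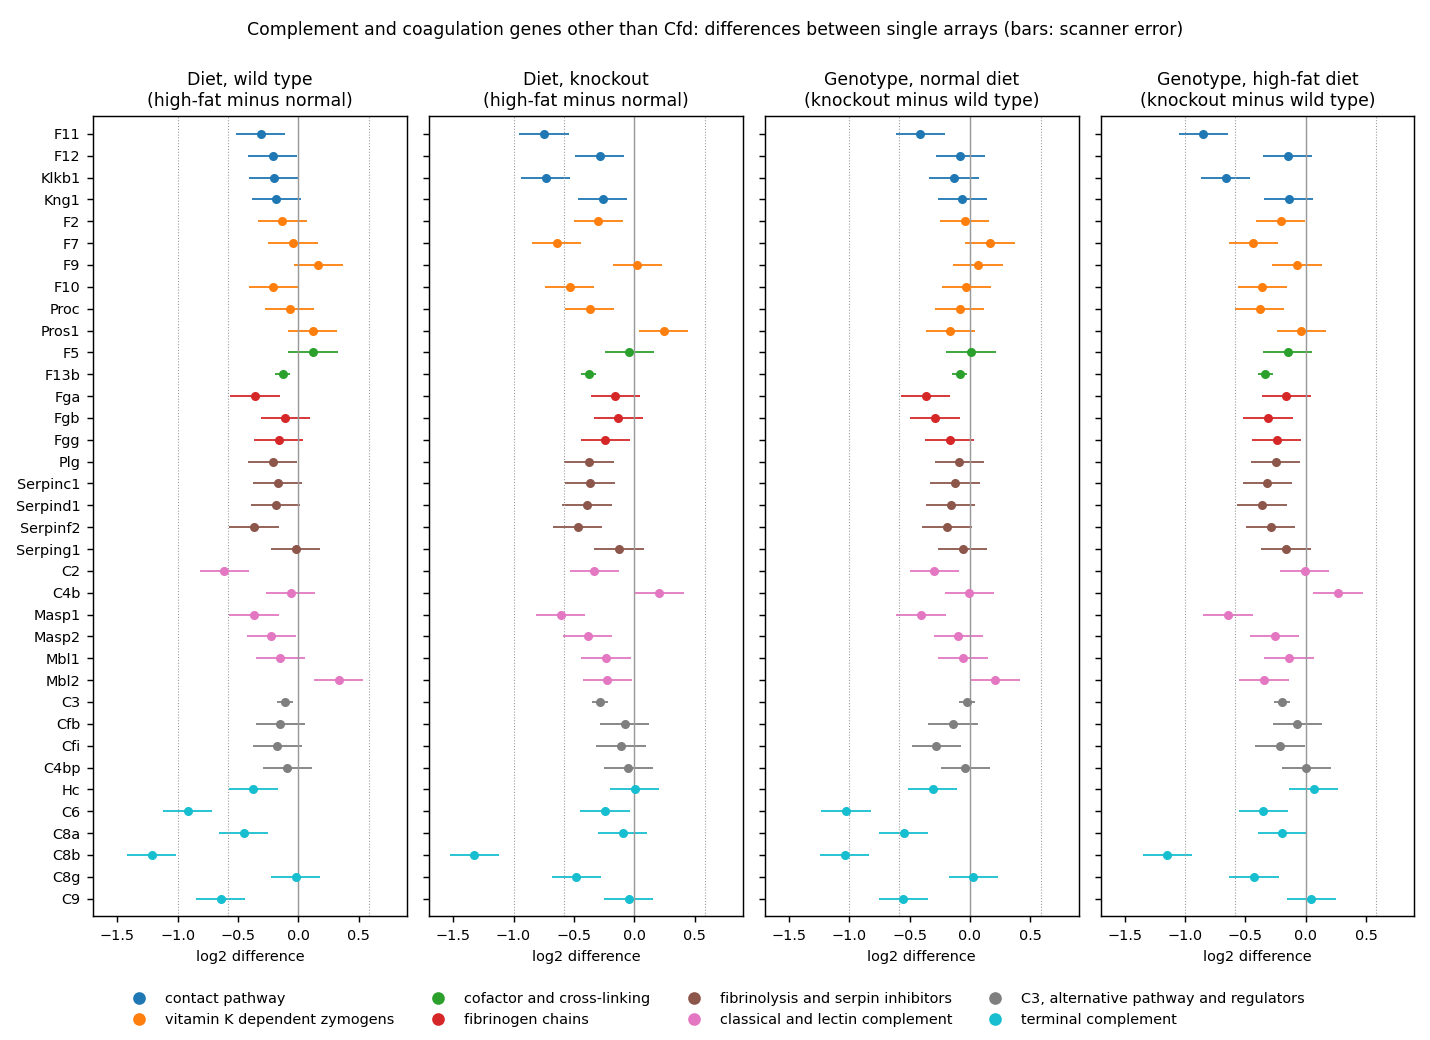
Log2 difference of each of the 36 genes other than Cfd in the 4 comparisons, coloured by role, with bars for the scanner error (n = 1 array per group) and dotted lines at 1.5-fold and 2-fold. No point lies past the 1.5-fold line on the higher side, and C8b lies past 2-fold on the lower side in every panel.

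With the scaling used for the levels, all 4 contact pathway genes were lowest on the knockout high-fat array. So were 30 of the 36 factors and 40.0% of all genes. Among genes with a mean scaled log2 signal of at least 4 the share was 71.4%, so this place is not particular to the contact pathway. F11, factor XI, which activates factor IX, was at 2.98, 2.66, 2.57 and 1.82. It fell by 0.75 ± 0.20 with diet in the knockout, leaving 59.5% of the normal-diet signal, and was 1.80-fold lower than wild type on high-fat diet (-0.85 ± 0.20), in both cases past 1.5-fold under all 8 alternatives. In wild type, diet gave -0.31 ± 0.20.

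Klkb1, which encodes plasma prekallikrein and is the next gene to F11 on chromosome 8, was at 5.09, 4.89, 4.96 and 4.22. The first 3 arrays lay within 0.20 of each other and the knockout high-fat array below them. It fell by 0.73 ± 0.20 with diet in the knockout and was 1.59-fold lower than wild type on high-fat diet (-0.66 ± 0.20). Quantile and cyclic loess normalisation put both differences under 1.5-fold, and normexp correction the second. F12, factor XII, and Kng1, kininogen, did not pass 1.5-fold, and their differences ran from -0.28 to -0.06. A dimmer Kng1 probe gave -0.46 for diet in the knockout and -0.36 for genotype on high-fat diet, also under 1.5-fold. Kng1 and its near-identical copy Kng2 may share signal.

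Among the vitamin K dependent zymogens, F7, factor VII, was at 2.25, 2.21, 2.42 and 1.77. It fell by 0.64 ± 0.20 with diet in the knockout, past 1.5-fold except under quantile or cyclic loess normalisation, and its second probe gave -0.73. In wild type the diet difference was -0.05 ± 0.20, which left -0.60 ± 0.29 between the diet differences. F10, factor X, the next gene to F7, was at 6.87, 6.66, 6.84 and 6.30, with -0.54 ± 0.20 for diet in the knockout. Its second probe, matched to another transcript, gave 0.26 in that comparison and 0.25 in wild type against -0.21 on the brighter one, so the probes disagree.

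F2, prothrombin, was at 7.81, 7.68, 7.77 and 7.47, and Proc, the anticoagulant protein C, at 6.69, 6.62, 6.61 and 6.24, both lowest on the knockout high-fat array without passing 1.5-fold. F9, factor IX, and Pros1, the cofactor protein S, were the zymogen-group genes that were not lower with diet, with 0.16 ± 0.20 and 0.12 ± 0.20 in wild type and 0.03 ± 0.20 and 0.24 ± 0.20 in the knockout. F5, the cofactor of factor Xa, spanned 0.15 over the 4 arrays, and F13b, the carrier subunit of the cross-linking factor XIII, was at 3.52, 3.38, 3.43 and 3.05. F13b was spotted several times and so had the small scanner error of 0.06, and its diet difference in the knockout was -0.38.

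Of the other vitamin K cycle genes, which recycle the cofactor for these zymogens, Nqo1, a quinone reductase, was higher by 1.5-fold or more in all 4 comparisons. It was at -2.42, -1.45, -1.25 and -0.60, and past 2-fold between genotypes on normal diet (1.17 ± 0.21). Ggcx, the carboxylase, and Vkorc1, the reductase, gave differences between -0.30 and -0.05.

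The fibrinogen chains did not pass 1.5-fold on the probes used. Fga was at 5.07, 4.71, 4.71 and 4.55, Fgb at 8.52, 8.41, 8.23 and 8.09, and Fgg at 8.64, 8.48, 8.48 and 8.24. All 3 were highest in wild type on normal diet and lowest in the knockout on high-fat diet. With diet, Fga gave -0.36 ± 0.20 in wild type and -0.16 ± 0.20 in the knockout, and Fgb and Fgg between -0.24 and -0.11. The Fga probes disagreed between genotypes, at -0.37 on the brighter and -0.86 on the dimmer probe on normal diet, and at -0.16 and -0.75 on high-fat diet. The 3 genes are neighbours on chromosome 3.

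Plg, plasminogen, was at 6.87, 6.66, 6.78 and 6.41. Its inhibitor Serpinf2, alpha-2-antiplasmin, was at 6.93, 6.56, 6.74 and 6.27, with -0.47 ± 0.20 for diet in the knockout. Serpinc1, antithrombin, was at 8.74, 8.57, 8.62 and 8.25, and Serpind1, heparin cofactor II, at 6.67, 6.48, 6.51 and 6.12. Each of these 4 genes was lower with diet in both genotypes by less than 1.5-fold. Serping1, the C1 inhibitor that also blocks kallikrein and factor XIIa, spanned 0.19. For the 19 coagulation and fibrinolysis genes together the median difference was -0.17 for diet in wild type and -0.37 in the knockout, with -0.09 and -0.29 between genotypes on normal and high-fat diet.

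In the early complement genes, C2, the protease that C4 carries in the C3 convertase, was at 5.12, 4.51, 4.83 and 4.50. It fell past 1.5-fold with diet in wild type (-0.62 ± 0.20), and was under that size with median, quantile or cyclic loess scaling. C4b, C4 itself, was at 7.15, 7.09, 7.15 and 7.35, the highest on the knockout high-fat array and so the reverse of most members, with 0.27 ± 0.20 between genotypes on high-fat diet. The probe may also read the near-identical C4a, which had no named probe of its own. Masp1, a lectin-pathway protease, was at -0.46, -0.83, -0.87 and -1.48. It fell past 1.5-fold with diet in the knockout (-0.61 ± 0.20) and was lower by that size between genotypes on high-fat diet (-0.65 ± 0.20), and in both cases was under it with normexp correction.

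Masp2, the protease that cuts C4 and C2, was at 4.71, 4.49, 4.61 and 4.23 and passed no threshold. Mbl1, a mannose-binding lectin, was at 3.49, 3.33, 3.43 and 3.2. Mbl2, the other such lectin, was at 7.13, 7.46, 7.33 and 7.11, with a diet difference of 0.33 ± 0.20 in wild type and -0.22 ± 0.20 in the knockout, neither past 1.5-fold.

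C3, the centre of the cascade, was at 9.0, 8.89, 8.97 and 8.69, with a diet difference of -0.28 ± 0.07 in the knockout. Cfb, factor B of the alternative pathway and the gene next to C2, spanned 0.22, and C4bp, a cofactor that disarms C4b, spanned 0.09. Cfi, the protease that inactivates C3b and C4b, was at 6.90, 6.73, 6.63 and 6.52. None of these 4 passed 1.5-fold in any comparison.

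Small differences below the size thresholds ran mostly one way, and how far they did depended on the scaling. Of the 36 factors, 32, 32, 31 and 32 were below 0 for diet in wild type, diet in the knockout, genotype on normal diet and genotype on high-fat diet. Their median differences were -0.17, -0.27, -0.11 and -0.23, beside -0.02, -0.07, -0.01 and -0.04 over all genes. Over all genes measured on both arrays, 7458 of 13733, 8343 of 13879, 7158 of 13779 and 7874 of 13828 were below 0. Read against the median of all genes in the same comparison, 30, 29, 30 and 30 of the 36 lay below it. Scaling each array to its median moved all genes alike, by 0.09, -0.11, 0.14 and -0.06, so these 4 counts could not change. The counts of members below 0 did change, to 26, 34, 16 and 34 of the 36. For genotype on normal diet the members' median became 0.03. Quantile normalisation gave 27, 18, 26 and 23 below the median of all genes, and cyclic loess 26, 19, 27 and 24. For diet in the knockout the members' place below other genes thus depended on the normalisation, with 18 or 19 of 36 under these settings.

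The lowest level was on the knockout high-fat array for 30 of 36 factors (83.3%), against 40.0% of all genes, and the highest on the wild-type normal-diet array for 29 (80.6%), against 31.2%. Because most of these genes are bright, the same was read over the 1355 genes with a mean scaled log2 signal of at least 4, a description added after the data were seen, and 27 of the 36 are among them. Of those bright genes 71.4% were lowest on the knockout high-fat array and 41.8% highest in wild type on normal diet, with 24 and 23 of the 27. All these shares are for the scaling used for the levels. Under quantile or cyclic loess normalisation, 19 of the 36 factors were below 0 for diet in the knockout. The others were then not lower on the knockout high-fat array than on the knockout normal-diet array. The count of 30 lowest there thus depends on the normalisation. The bright genes' median differences were -0.06, -0.22, 0.00 and -0.18, beside -0.18, -0.28, -0.10 and -0.21 for the 27. For diet in the knockout 11.3% of the bright genes were lower by 1.5-fold, against 2 of the 27 members (7.41%), and for diet in wild type 2.80% of them were, again against 2 of the 27.

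**Figure D3:**
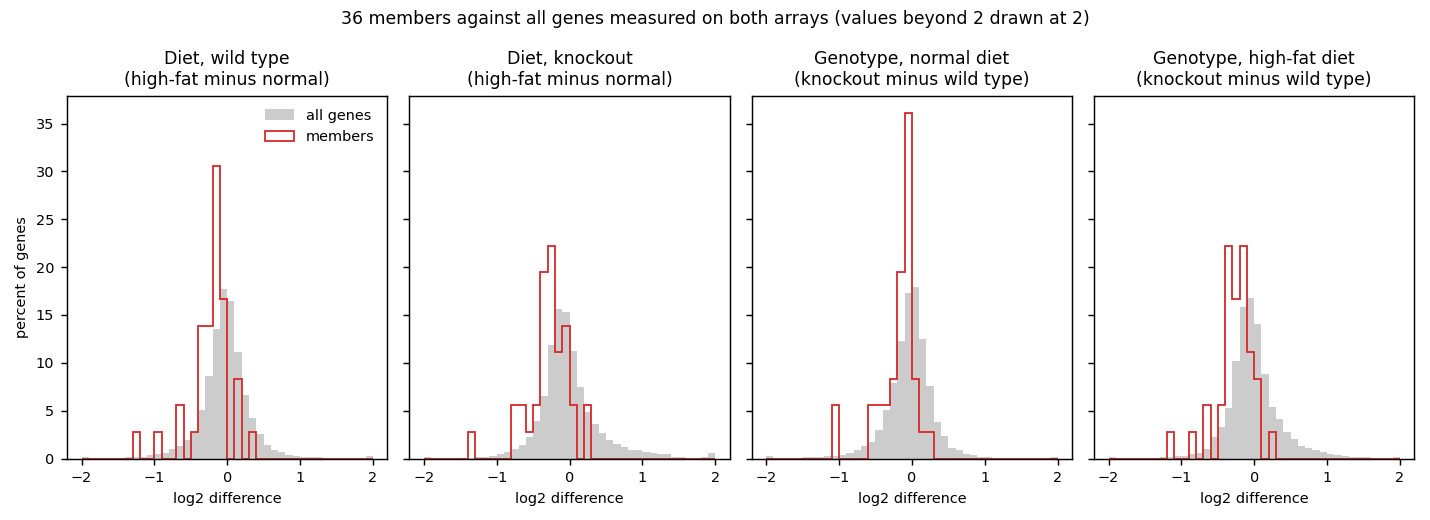
Distribution of log2 differences in the 4 comparisons for the 36 factors (red outline) and for all genes well above background on both arrays (grey), as a percent of genes in each bin. The members' medians of -0.17, -0.27, -0.11 and -0.23 lie to the left of those of all genes. C8b is in the lower tail of all 4 panels, and C6 in those of diet in wild type and genotype on normal diet.

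Cfd differed from the other 36 in size and direction. It encodes the protease that cuts factor B, and its level was -1.10, 1.71, -1.45 and 2.14, with both high-fat arrays far above both normal-diet arrays. On high-fat diet it rose in both genotypes, 7.0-fold in wild type (2.81 ± 0.20) and 12.1-fold in the knockout (3.59 ± 0.20). Between genotypes it differed by -0.35 ± 0.21 on normal diet and 0.43 ± 0.20 on high-fat diet, under 1.5-fold. Fabp4, a fatty acid binding protein of adipocytes and macrophages, was at 0.70, 2.10, 1.24 and 2.64 and rose by 1.40 ± 0.20 with diet in each genotype. The adipocyte-defining genes Adipoq, Plin1 and Lep were not well above background on any array. Retn, resistin, was at -3.49, -4.04, -3.21 and -4.09, lower on both high-fat arrays. The summed signal of the 5 adipose markers was 1.76, 4.37, 2.49 and 6.30, of which 2 were well above background on each array. Most of this sum is Fabp4, and it includes the signals of Adipoq, Plin1 and Lep that were not well above background. The part of adipose tissue in the rise of Cfd was not tested.

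Most of the 36 members were lowest on the knockout high-fat array with the scaling used for the levels. The C1q chains and properdin, known to be made mostly outside hepatocytes, were highest there. Other complement genes of such sources were not, among them Fcna, the macrophage lectin ficolin A, at 1.63, 1.67, 1.41 and 1.23, and Cr2, complement receptor 2, at -2.51, -2.74, -2.89 and -3.2. C1qa, C1qb and C1qc, the chains of the C1q recognition molecule, rose past 2-fold with diet in the knockout, by 1.38 ± 0.20, 1.53 ± 0.20 and 1.07 ± 0.07, and so did Cfp, properdin, by 1.16 ± 0.20. In wild type these 4 genes gave 0.28 to 0.38. Of the 15 further fluid-phase complement genes measured, these were the 4 past 2-fold with diet in the knockout, where 4.22% of all genes were higher by that size. Clu and Vtn, which block pore insertion, stayed under 1.5-fold in all 4 comparisons.

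Of 15 complement receptors and membrane regulators, 13 were measured on both arrays of the knockout diet comparison. Itgax and Itgb2, which form complement receptor 4, rose by 2.87 ± 0.25 and 1.73 ± 0.21, C3ar1, the receptor of the C3a fragment, by 1.41 ± 0.28, and Cd93 by 1.26 ± 0.20. C5ar1, the C5a receptor, was well above background on the high-fat arrays alone and was at least 2.03-fold higher with diet in wild type and at least 1.82-fold higher in the knockout. The Cd59 genes, whose products block the membrane attack complex on the cell's own surface, differed with genotype instead. Cd59a was at 2.57, 2.85, 1.59 and 1.81, and was 2-fold lower in the knockout on high-fat diet (-1.03 ± 0.20) and just short of it on normal diet (-0.98 ± 0.20). Cd59b was at -1.85, -2.0, -3.21 and -3.54, lower by 1.36 ± 0.22 and 1.54 ± 0.22. Whether catalase loss or other DNA carried with the knockout allele gave these Cd59 differences was not tested. The gene pair is closely related in sequence, and signal shared between them was not measured.

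On the vessel and leukocyte side of coagulation, Anxa2, a cell surface receptor for plasminogen activator, rose by 2.04 ± 0.20 with diet in the knockout, Plaur, the urokinase receptor, by 1.68 ± 0.24, and Procr, the protein C receptor, by 1.07 ± 0.22. Plat, tissue plasminogen activator, was well above background on the knockout high-fat array alone and at least 2.12-fold higher there with diet. In wild type Anxa2 rose past 2-fold (1.24 ± 0.20). Of 14 further genes of the pathway listed as liver-made, Serpina5, the protein C inhibitor, was dim, at -3.48, -4.24, -5.97 and -3.90. It was not well above background in the knockout on normal diet. There it was at least 3.97-fold lower than in wild type, and it was at least 2.98-fold higher with diet in the knockout. The rest of that list gave no call at 2-fold.

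Macrophage markers were highest on the knockout high-fat array, as C1q and properdin were. Vsig4 is in both the macrophage and the receptor list, so these lists are not separate. All 6 measured were higher by 1.5-fold or more with diet in the knockout, among them Marco (3.74 ± 0.20) and Adgre1 (1.98 ± 0.20), where 9.52% of all genes were higher. In wild type 0 of 6 were, where 4.45% of all genes were higher, and their values ran from -0.13 to 0.38. Their summed signal was 25.3, 28.9, 21.7 and 52.4, highest on the knockout high-fat array. All 6 were well above background on all arrays, and their part in these results was not tested. In the knockout diet comparison, 9 of the 12 vessel-side genes measured on both arrays were above 0 and 3 below. Over all genes, 5536 of 13879 were above 0 there. All 5 stellate markers were above 0, with Col1a1 and Col3a1, fibrillar collagens, up by 2.75 ± 0.21 and 2.13 ± 0.20. So were all 5 endothelial markers, with Lyve1, a hyaluronan receptor, up by 1.5 ± 0.21. The stellate marker Reln (0.02 ± 0.22) and the endothelial marker Kdr (0.09 ± 0.20) lay within the scanner error. The stellate sums, mostly Dcn, were 53.1, 59.1, 46.1 and 66.8. The endothelial sums were 14.9, 16.6, 13.4 and 16.0, and the sums of 4 platelet markers 0.491, 0.606, 0.582 and 0.998. Their part in the values of the vessel-side genes was not tested either.

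**Figure D4:**
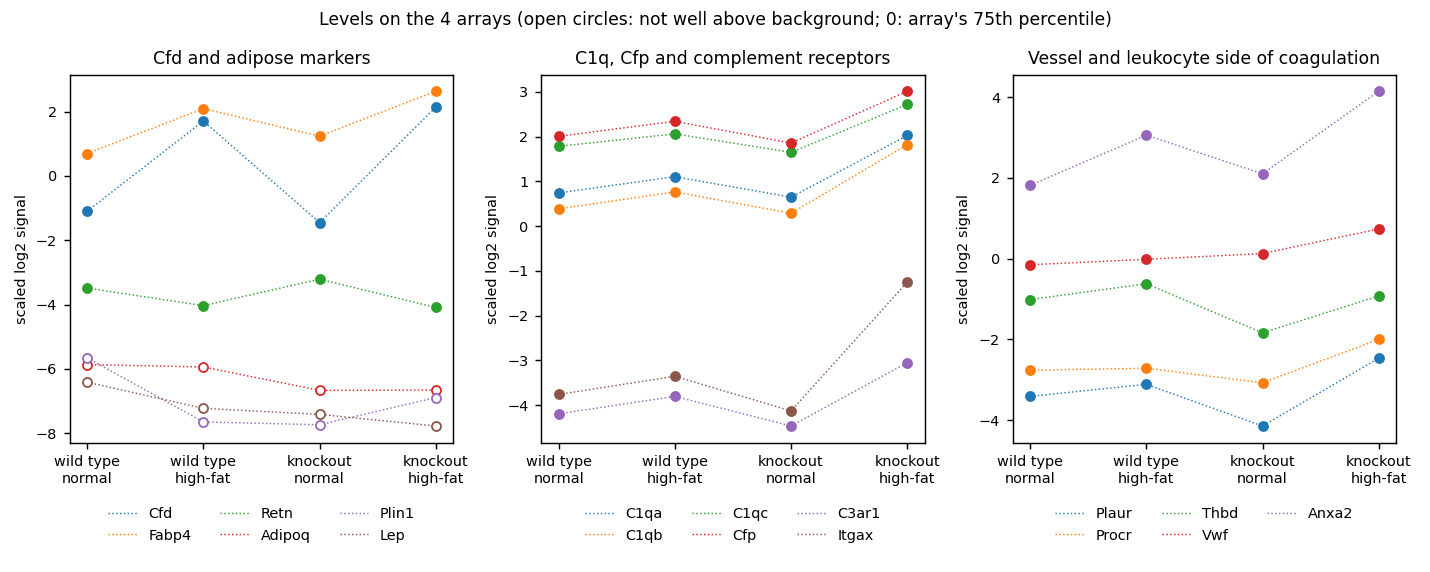
Scaled log2 signal on the 4 arrays (0 is the array's 75th percentile, n = 1 array per group) for Cfd and adipose markers, for C1q, properdin and receptors, and for vessel and leukocyte genes of coagulation. Dotted lines join 1 gene's points, open circles mark values not well above background, and heights are not comparable between genes. Cfd is high on both high-fat arrays, and Itgax, C1qb and Plaur are highest on the knockout high-fat array.

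The acute phase proteins, whose genes hepatocytes switch on in inflammation and to which fibrinogen, C3 and factor B belong, gave other values than those members. Of 17 acute phase genes outside the 37, 6 rose past 2-fold with diet in the knockout and 0 fell, where 4.22% of all genes were higher and 1.64% lower. Lcn2, the iron-siderophore binder lipocalin 2, rose by 4.57 ± 0.20, Saa1 and Saa2, serum amyloid A, by 2.52 ± 0.20 and 2.46 ± 0.20, and Orm3, an orosomucoid, by 1.85 ± 0.20. The list's median there was 0.41, whereas Fga, Fgb, Fgg, C3 and Cfb gave -0.28 to -0.08. In wild type 2 of the 17 rose past 2-fold, Lcn2 (2.00 ± 0.20) and Saa4 (1.03 ± 0.20), where 1.78% of all genes were higher. At 1.5-fold, 4 of the 17 were higher there and 2 lower, Orm1 (-0.70 ± 0.20) and Orm2 (-0.66 ± 0.20). Of all genes 4.45% were higher and 6.51% lower by that size. On normal diet Saa1 and Saa2 were lower in the knockout than in wild type, by 0.94 ± 0.20 and 1.09 ± 0.20. Socs3, the feedback inhibitor of interleukin-6 signalling, was at 3.01, 2.53, 1.57 and 1.31, lower in the knockout by 1.44 ± 0.20 on normal diet and 1.22 ± 0.20 on high-fat diet. Il6 itself was not well above background in the knockout on normal diet.

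Of 16 hepatocyte transcription factors, 0 passed 2-fold in either diet comparison, a count near the background of 1.78% higher and 2.31% lower in wild type and 4.22% and 1.64% in the knockout. Hnf4a, a main activator of clotting factor genes, was at 6.84, 6.82, 6.81 and 6.46, with no difference past 1.5-fold. Nr0b2, a repressor induced by bile acids, was lower in the knockout on normal diet by 1.29 ± 0.20, past 2-fold. Foxa3, a forkhead factor, was at 1.54, 1.36, 1.00 and 0.37, lower in the knockout on high-fat diet by 0.99 ± 0.20, past 1.5-fold. Cps1 and Tat were the hepatocyte markers past 1.5-fold with diet in the knockout, at -1.10 ± 0.20 and -0.98 ± 0.20, while Alb gave -0.28 ± 0.20 and Ttr -0.24 ± 0.20.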

How the data were processed

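Mouse liver RNA of 4 samples was read on single-colour Agilent arrays, 1 per group. The authors deposited scanner output of Feature Extraction 11.5.1.1, per the file headers, in which each spot has a linear intensity after background subtraction (the processed signal), its error and flags. Values were extracted with GeneSpring GX 7.3, per the series' design text and the submitters' processing notes. How the authors scaled and compared them is not given in the sources used here. A deposited value table holds intensity on a linear, uncentred scale, and at least 99.8% of its values on each array lay within 1% of the processed signal. The medians of its columns, in the report's order, were 79.9, 75.9, 72.4 and 89.2. A 1-colour value has no direction.

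Control spots were left out, and outlier spots where the probe had another. Spots of a probe were averaged as log2, and scaled by subtracting the 75th percentile of the array's 39429 probes. As processed signal that percentile was 1006, 1019, 1002 and 1152. Accessions matched to a RefSeq gene table (assembly GRCm38.p6, used for names and gene order only, with promoter windows from a separate RefSeq table of that build) named 27508 probes of 20886 genes. The probe with the highest mean signal stood for a gene, as for 10 of the 37 members with several probes. A gene counted as higher or lower at 1.5-fold or 2-fold when well above background on both arrays. When it was so on 1 array, the other was set to the higher of its own signal and the lowest signal well above background, and the size is written "at least". Background shares at 1.5-fold and 2-fold are over all named genes well above background on at least 1 of the 2 arrays. Medians and signs over all genes use those well above background on both. Shares of genes lowest or highest on an array are over the 13550 genes well above background on all 4. The number of arrays limits the precision, and all 4 lay on 1 slide in 1 scan.

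The members and lists were chosen with earlier results of these data known. All 37 members are accounted for, those past 2-fold and then 1.5-fold with all 4 levels. Other lists name at most 4 genes per comparison past 2-fold, by size, Cat is the check of genotype, and further list genes were named after their values were seen. The alternatives were 8: median scaling, quantile and cyclic loess normalisation (limma 3.58.1 in R 4.3.3), normexp with offset 50, the deposited value table, the mean of all probes, only genes measured on both arrays, and outlier spots kept. Normexp was run on the median spot signal in place of the mean. The counting of genes by size was also run on simulated data with known changes. Their only noise was the scanner error, so the run says nothing about the spread between animals. The remaining work used Python 3.11.15, numpy 2.4.6, pandas 2.3.3 and matplotlib 3.10.9. A few listed genes are not reported here.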

Additional observations from a re-analysis of the deposited data

Results flagged for a closer look

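Mbl2, a mannose-binding lectin gene, had diet differences of opposite sign in the genotypes, 0.33 in wild type and -0.22 in the knockout, so that the knockout minus wild-type value was -0.56. The genotype differences were 0.21 on normal diet and -0.35 on high-fat diet. They are -0.56 apart by arithmetic, since they use the same 4 values, and add no second observation. Cfd had genotype differences of -0.35 on normal diet and 0.43 on high-fat diet, 0.79 apart. These differences between differences rest on 1 array per group and were not tested.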

How the results depend on the processing

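The 8 alternatives gave 1184 values for single members, of which 1111 moved by less than the scanner error, 73 moved by more and 0 of those past 1.5-fold changed sign. Some alternatives could move a member little or not at all. Keeping only genes measured on both arrays could not, because all 37 were well above background on all 4. The mean of all probes could move only the 10 members with several. The deposited values were nearly the processed signal, and keeping outlier spots left the members' medians as they were. Of 160 recomputed counts and medians, 150 kept counts within 1.5 times the reported one or medians within the scanner error. With median scaling, 2 of the 36 genes other than Cfd were lower by 1.5-fold for diet in wild type, and 0 were lower by 2-fold between genotypes on normal diet. Quantile normalisation and cyclic loess each left 3 genes lower by 1.5-fold for diet in the knockout, with medians of -0.033 and -0.040. For genotype on normal diet, quantile normalisation and normexp each left 1 gene lower by 2-fold, and the mean of all probes gave 4 lower by 1.5-fold. Normexp gave 2 lower by 1.5-fold between genotypes on high-fat diet. The causes were not tested. With 1 array per group no array could be left out, and slide and scan could not be fitted. No paired analysis was possible because each group has 1 array. All 37 members were well above background, so signal over background did not limit them, and the number of arrays did.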
